A study of Mus musculus with 20 samples.

Results

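The interleukins and interleukin receptors of the mouse cecum were examined as 1 group of genes, chosen by name: every protein-coding gene whose symbol begins with Il and a digit. In the annotation used here (GENCODE M39, GRCm39), 84 genes fitted this rule, and 76 of them had a row in the table of 19887 genes. The other 8 (Il3, Il9, Il20, Il31, Il36rn, Il1f10, Il1rapl2, and Il11ra3) had no row and were not analysed here. The 76 genes comprised 35 ligands, antagonists, and binding proteins, 40 receptor genes, and the amino acid oxidase gene Il4i1, which bears an interleukin name but encodes an enzyme.

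The tissue came from 20 C57BL/6 mice, 5 on each of 4 diets. All had eaten the Total Western Diet (TWD), a rodent diet modeled on American nutrient intakes, from weaning, at 3 weeks of age by the labels, for 6 weeks, and then ate the TWD with 0, 2, 5, or 10% (w/w) raw potato starch, here called RPS, for 3 weeks. RPS is a starch that resists digestion and reaches the cecum. The mice fed with 0% RPS are the controls of every comparison, so the comparisons at 2, 5, and 10% share these 5 mice. The RNA came from sections of the cecum, and in such bulk RNA fewer cells of a type and less RNA per cell cannot be told apart.

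Interleukins are secreted proteins by which leukocytes, epithelial cells, and stromal cells signal to each other, and each acts through a receptor built from chains that are often shared among several ligands. In the gut wall, IL-1 family proteins are released by injured or inflamed cells, IL-22 and IL-17 act on the epithelium, IL-4 and IL-13 drive responses to worms, and IL-10 restrains inflammation. Most interleukin transcripts are made by few cells and are short-lived, whereas receptor chains are carried by many cell types.

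The total count was between 14967798 and 42687283 per mouse, and 3 counts, taken as the least that can be shown, amounted to 0.0698 to 0.190 CPM (counts scaled to the library size with edgeR's TMM factors), which covers counting error only. The 76 genes held 0.0909% of all counts, and the median gene among them had 1107 counts over the 20 mice together. After edgeR's filter on low counts, 54 were tested among 15348 genes, namely 17 ligands or antagonists, 36 receptor genes, and Il4i1. The 22 below the filter were 18 ligands and 4 receptor genes (Il11ra2, Il17rb, Il20ra, and Il23r). Log2 CPM varied more between mice on 1 diet in the 54 genes (median SD 0.377) than in all tested genes (0.237). Epithelial markers were abundant (a summed CPM of 5 genes with medians of 9330 in mice fed with 0% RPS and 8343 with 10%), while the summed CPM of 5 neutrophil markers did not exceed 3.00 in any mouse, and that of 5 markers of stratified squamous epithelium did not exceed 1.43. The summed CPM of 4 smooth muscle markers had medians of 1977, 2718, 4238, and 3983 with 0, 2, 5, and 10% RPS, and 1 of the 4 was past the threshold at 10%. The summed CPM of 4 fibroblast markers had medians of 188.4, 214.1, 264.2, and 219.0, and 0 of the 4 passed at 10%. At that dose 3 of the 4 had a higher estimate, and Pdgfra had a lower one. The part of these differences in the results below was not tested.

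Measured as CPM per kilobase of exon, which allows genes of unequal length to be compared, the median over the 20 mice was 0.117 for the 35 ligands and antagonists and 0.717 for the 40 receptor genes. Among the genes past the filter, it was 0.8645 for 17 ligands and antagonists and 1.19 for 36 receptor genes, a smaller gap than over all members. The highest receptor was Il17rc at 39.5 per kilobase, a chain of the IL-17 receptor, which was followed by Il13ra1 (16.6, a chain of the IL-4 and IL-13 receptors), Il22ra1 (13.4, the epithelial IL-22 receptor), Il10rb (13.2, the chain shared by IL-10 and IL-22 receptors), and Il1r1 (6.41, the signaling IL-1 receptor). The levels of Il22ra1 and Il10rb were close. The highest ligand was Il18 at 22.8, an IL-1 family cytokine made by epithelial cells. Il15 (6.42), the IL-1 receptor antagonist Il1rn (3.43), Il4 (2.20), and Il34 (1.84, a ligand of the macrophage growth factor receptor) came next. Il10rb overlaps the gene Gm21970 on its own strand, Il4 overlaps Kif3a on the opposite strand, Il18 overlaps Tex12 and Bco2 on the opposite strand, and Il34 overlaps Vac14 and Mtss2, also on the opposite strand, so their levels may include reads of those genes.

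**Figure D1:**
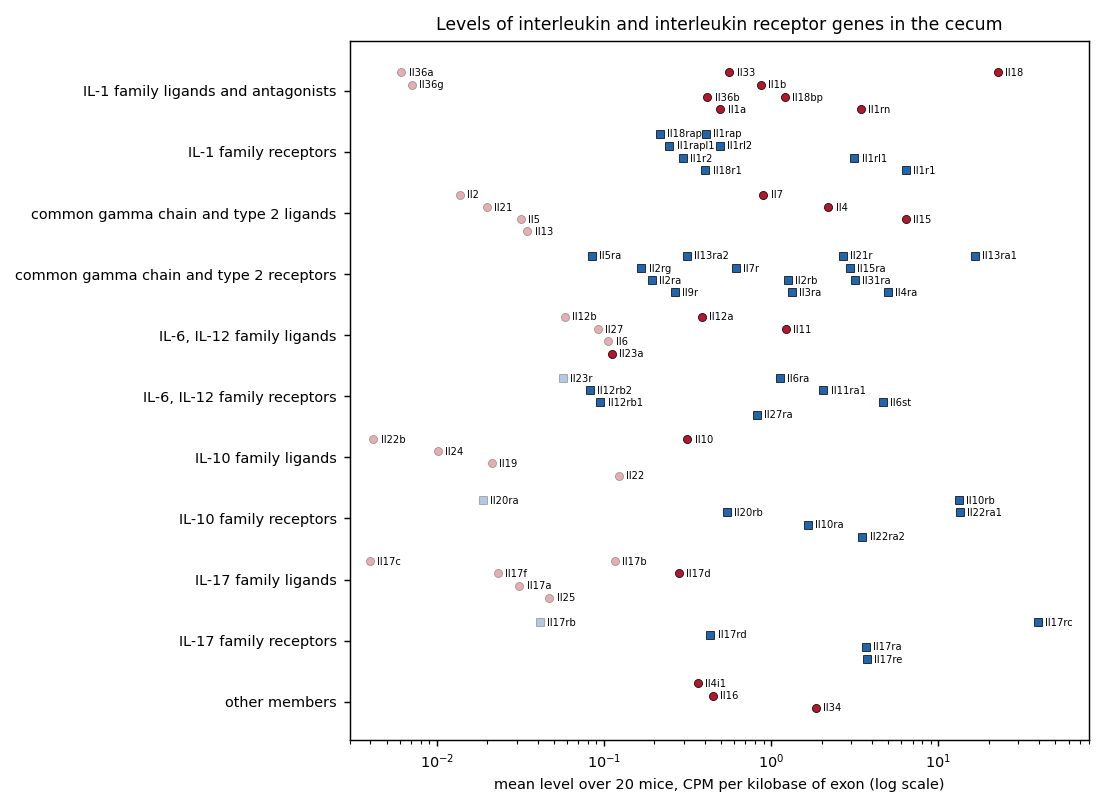
Mean level over the 20 mice of each gene with at least 1 count, in CPM per kilobase of exon (log scale), by family. Squares are receptor genes and circles are ligands and other genes, and pale symbols are genes below the filter. Receptors of the IL-17 and IL-10 families extend to 39.5 and 13.4, and the ligands of these families reach 0.315 at most.

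Of the 9 gut interleukins named by rule, Il17a, Il22, Il25, and Il6 were below the filter, while Il1b, Il10, Il18, Il23a, and Il33 were tested. The 5 other IL-17 family ligands besides Il17d were also below it. Il17a, made by T helper cells and innate lymphocytes, had 20 counts in the 20 mice together. Its CPM was 0 in 4 of 5 mice fed with 0, 2, and 5% RPS, and in mice 1 to 5 on 10% RPS it was 0.0348, 0.0516, 0.0316, 0, and 0.188. Il22 had 82 counts in all, and mouse 1 on 0% RPS (1.30 CPM) and mouse 5 on 10% RPS (0.713 CPM) held most of them. The near-identical Il22b had 3 counts, and reads that fit both copies may have been divided between them or left out. Il6 was at 0.0375 to 0.597 CPM with 0% RPS and 0.0942 to 0.488 with 10%, so these groups overlapped. Il25, the tuft cell cytokine, had 29 counts in the 20 mice. With no filter, edgeR tested the 18 ligands below it, and 0 of 18 passed the threshold at 2, 5, or 10% RPS or for the slope, as 0.0%, 0.173%, 0.701%, and 0.556% of all genes did. At an unadjusted p under 0.05 in that fit, Il24 was higher (9.28% of all genes were) and Il36g lower (7.85%) at 10% RPS, Il13 and Il17b were higher (6.09%) and Il22 lower (5.81%) at 5%, and 0 were higher (2.62%) and Il22 lower (2.76%) at 2%, so 0 to 2 of 18 in each direction. DESeq2 gave an adjusted p to 18 of them at 2% RPS, 11 at 5%, and 0 at 10% and for the slope, and none of those passed.

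In mice fed with 10% RPS, 0 of the 54 genes passed the threshold against 0% RPS (edgeR's quasi-likelihood test, Benjamini-Hochberg adjusted p of at most 0.05 over all tested genes and a fold change of at least 1.5), a threshold that 1.04% of all tested genes passed. DESeq2's Wald test called 1, Il9r, and 2.46% of all genes. With DESeq2 and the same thresholds, the paper listed Il1rn as lower in the cecum at 5 and 10% RPS, and Il11 at 10%. Of these, DESeq2 here called Il1rn at 5% RPS but not at 10%, and it did not call Il11. The paper's plot of the cecal data gives more mice per group than the 5 used here. The reason for the difference in calls was not tested. At an unadjusted p under 0.05, 11 of the 54 genes (20.4%) were higher, against 9.74% of all genes, and 4 (7.41%) were lower, against 9.75% of all genes. The 11 were Il10ra, Il13ra2, Il17rd, Il18, Il18r1, Il1a, Il1rapl1, Il22ra1, Il22ra2, Il2rg, and Il9r, and the 4 were Il10rb, Il11, Il1rl1, and Il1rn. The estimate was above 0 in 39 of 54 genes (72.2%), against 50.9% of all genes, and the median log2 fold change was 0.15 in the members and 0.0041 in all genes. All p-values are two-sided. The lowest edgeR adjusted p among the 54 was 0.0998, for Il2rg.

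Lower doses gave fewer such genes. With 5% RPS, 0 of 54 passed the threshold in edgeR, where 0.195% of all genes did, and DESeq2 called 1, Il1rn, and 1.41% of all genes. At an unadjusted p under 0.05, Il18r1 was higher (1.85% of the 54, 6.74% of all genes), and Il11, Il1rl1, and Il1rn were lower (5.56% of the 54, 6.54% of all genes). The lowest edgeR adjusted p was 0.0597, for Il1rn. With 2% RPS, 0 of 54 passed in edgeR and 0 in DESeq2, and the share of all genes was 0.0% in edgeR and 0.027% in DESeq2. At an unadjusted p under 0.05, only Il22ra1 was higher (2.58% of all genes were) and only Il11 was lower (3.19% of all genes). Over the 4 doses, 0 of 54 genes had a linear trend in log2 level at an edgeR adjusted p of at most 0.05, which 1.11% of all genes had, and DESeq2 called Il22ra2 and Il9r, and 4.84% of all genes. At an unadjusted p under 0.05, 11 genes (20.4%) sloped up, against 9.37% of all genes, and 5 (9.26%) sloped down, against 9.47% of all genes.

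**Figure D2:**
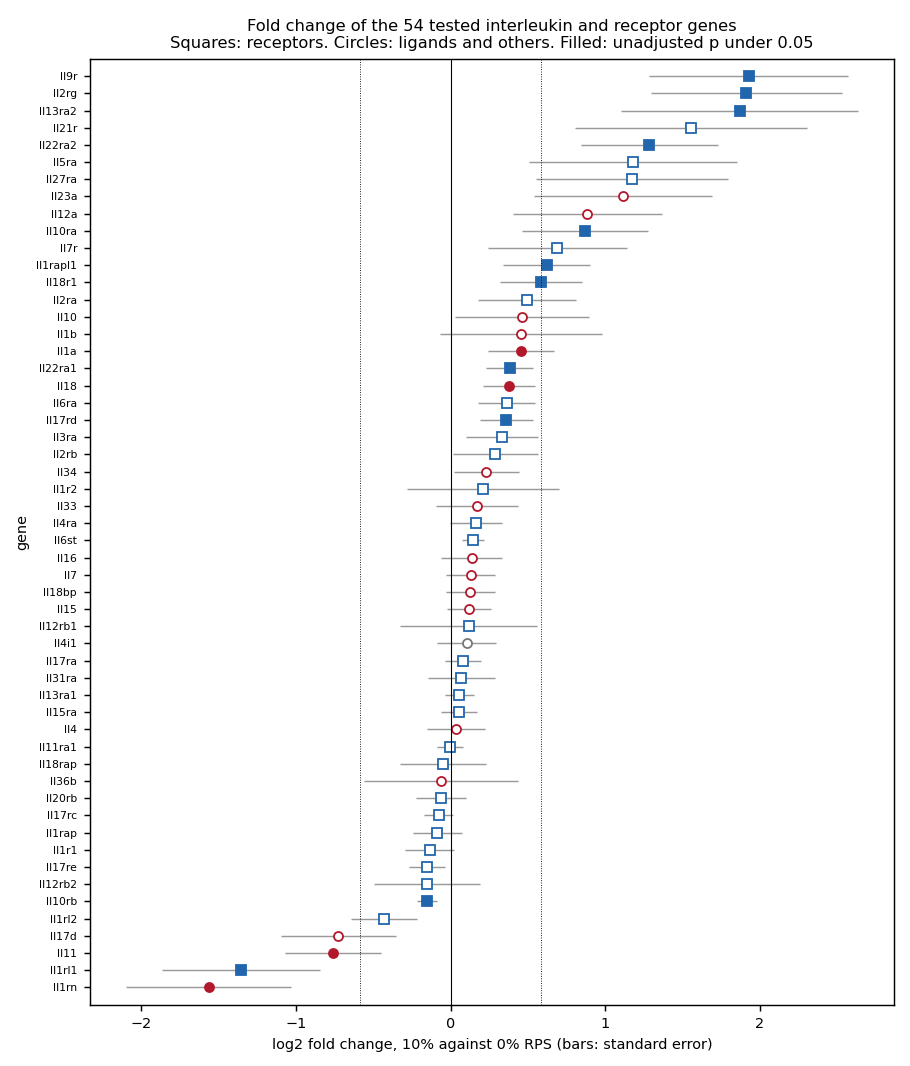
Log2 fold change of the 54 tested genes in mice fed with 10% against 0% RPS (edgeR, n = 5 mice per diet), with bars for 1 standard error. Squares are receptor genes, circles are ligands and others, filled symbols have an unadjusted p under 0.05, and dotted lines mark a fold change of 1.5 in each direction. The estimates extend from -1.56 for Il1rn to 1.93 for Il9r, and none of the genes passed the adjusted threshold.

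Il1rn (chr2:24226865-24241506, plus strand, GRCm39) encodes the IL-1 receptor antagonist, which occupies the IL-1 receptor without signaling. In mice 1 to 5 it was at 47.4, 25.1, 24.1, 52.2, and 32.0 CPM with 0% RPS and at 31.9, 11.4, 13.1, 44.8, and 4.68 CPM with 2%. With 5% RPS it was at 10.2, 4.58, 5.33, 8.08, and 3.06 CPM, and with 10% at 7.04, 8.16, 5.37, 23.2, and 17.8 CPM. Every mouse fed with 5 or 10% RPS lay below every mouse fed with 0% RPS, whereas the mice fed with 2% spanned both ranges. The mean was 36.2 ± 12.9 CPM (SD, n = 5) with 0% RPS, 6.25 ± 2.86 with 5%, and 12.3 ± 7.79 with 10%. On the log2 scale the fold change was -2.52 ± 0.55 (SE) with 5% RPS (edgeR adjusted p = 0.0597) and -1.56 ± 0.53 with 10% (edgeR adjusted p = 0.124). In DESeq2 the value at 5% was -2.53 with an adjusted p of 0.0010, past the threshold, and over the alternatives tried the adjusted p at 5% was between 0.0010 and 0.177. Il1rn was the 1 member whose mice all lay below those of 0% RPS at 10%, as in 3.2% of all genes, and at 5%, as in 2.04% of all genes. The summed CPM of the 5 squamous epithelium markers, which had 2 to 167 counts each over the 20 mice, had medians of 0.803 (range 0.557 to 1.43) with 0% RPS, 0.569 (0.233 to 0.681) with 2%, 0.219 (0.0634 to 0.661) with 5%, and 0.474 (0.450 to 1.18) with 10%. Mice 1 and 4 were the 2 highest on 0% RPS, and mouse 4 the highest on 10%, in both this sum and Il1rn, whereas mouse 4 on 2% RPS, the highest there in Il1rn, was at 0.482 in the sum. Krt14, the 1 of the 5 that was tested, had a log2 fold change of -2.17 ± 0.56 with 5% RPS and -1.44 ± 0.52 with 10% (edgeR adjusted p = 0.0839 and 0.141), and Krt6a, with 2 counts in all, was at 0 in 19 of 20 mice. The part of these cells in the values of Il1rn was not tested.

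Il1rl1 (chr1:40468730-40504575, plus strand) encodes ST2, the IL-33 receptor of mast cells, innate lymphocytes, and T cells, of which a soluble form binds IL-33 without signaling. It was at 55.2, 40.7, 14.4, 53.7, and 14.9 CPM in mice 1 to 5 on 0% RPS and at 24.9, 10.8, 13.9, 61.4, and 11.6 CPM on 2%. With 5% RPS the values were 16.4, 11.1, 9.96, 17.0, and 7.58 CPM, and with 10% they were 8.75, 12.7, 8.78, 14.8, and 25.01 CPM. The groups overlapped, because mice 3 and 5 on 0% RPS lay within the range of the mice fed with 10%. For Il1rl1 the log2 fold change was -1.52 ± 0.51 with 5% RPS (edgeR adjusted p = 0.177) and -1.35 ± 0.51 with 10% (edgeR adjusted p = 0.160). Its ligand Il33 was at 3.68 ± 1.49 CPM with 0% RPS and 4.16 ± 0.99 with 10% (log2 fold change 0.17 ± 0.27, edgeR adjusted p = 0.769). When single controls were left out, this value was 0.41 in the absence of mouse 1 and 0.013 in that of mouse 2. Mice 1 and 4 on 0% RPS and mouse 4 on 2% RPS had the 3 highest values of both Il1rn and Il1rl1. The summed CPM of 5 mast cell markers was 30.04 to 34.8 with 0% RPS and 30.4 to 36.9 with 10%, so these ranges overlapped. This sum mostly follows Kit, which had 19635 counts, against 713 for Cpa3, 156 for Fcer1a, 124 for Tpsb2, and 27 for Cma1. At 10% RPS the log2 fold change was 0.11 ± 0.10 for Kit, -0.49 ± 0.43 for Cpa3, and -0.74 ± 0.87 for Fcer1a (edgeR adjusted p = 0.611, 0.561, and 0.682). The part of mast cells in the values of Il1rl1 was not tested.

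Il11 (chr7:4775372-4785858, minus strand), an IL-6 family cytokine of stromal cells, was at 8.30, 2.07, 2.29, 3.39, and 2.09 CPM in mice 1 to 5 on 0% RPS. The mice fed with 2, 5, and 10% RPS lay between 1.59 and 2.54 CPM, so only mice 1 and 4 on 0% RPS stood above them. The log2 fold change was -0.73 ± 0.31 with 2% RPS, -0.73 ± 0.31 with 5%, and -0.76 ± 0.31 with 10% (edgeR adjusted p = 0.849, 0.298, and 0.184). Without mouse 1 on 0% RPS these values were -0.17, -0.17, and -0.20. The fibroblast marker sum was 172.0 to 195.3 CPM with 0% RPS, 201.8 to 279.2 with 5%, where all 5 mice lay above all controls, and 194.4 to 257.7 with 10%. The markers in this sum did not move together. With 5 and 10% RPS the log2 fold change was 0.90 ± 0.24 and 0.68 ± 0.24 for Col1a1 (edgeR adjusted p = 0.0912 and 0.133). For Pdgfra it was -0.23 ± 0.13 and -0.31 ± 0.13 (edgeR adjusted p = 0.452 and 0.183).

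The promoter windows of these 3 genes are shown because they were the members with an unadjusted p under 0.05 on the lower side at both 5 and 10% RPS, in comparisons that share the control mice, and they were singled out after their values were seen. Each sequence is the 250 bases before a start site, read 5′ to 3′ on the strand of the gene from RefSeq windows and placed on GRCm39 by exact match. Capitals mark matches to TGANTCA, the letters of the AP-1 motif, which reads the same on both strands. AP-1 is a transcription factor family that responds to cytokines and growth factors.
Il1rn (chr2:24226622-24226871, plus strand): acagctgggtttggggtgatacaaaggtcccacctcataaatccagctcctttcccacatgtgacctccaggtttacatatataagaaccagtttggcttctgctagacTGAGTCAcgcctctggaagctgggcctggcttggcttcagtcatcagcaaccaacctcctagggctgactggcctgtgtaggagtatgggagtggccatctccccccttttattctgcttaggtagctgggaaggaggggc
Il1rl1 (chr1:40468480-40468729, plus strand): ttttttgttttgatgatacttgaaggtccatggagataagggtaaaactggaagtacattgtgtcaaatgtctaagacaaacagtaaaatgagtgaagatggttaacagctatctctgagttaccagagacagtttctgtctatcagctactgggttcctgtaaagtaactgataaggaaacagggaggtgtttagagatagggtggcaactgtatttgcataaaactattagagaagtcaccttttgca
Il11 (chr7:4785857-4786106, minus strand): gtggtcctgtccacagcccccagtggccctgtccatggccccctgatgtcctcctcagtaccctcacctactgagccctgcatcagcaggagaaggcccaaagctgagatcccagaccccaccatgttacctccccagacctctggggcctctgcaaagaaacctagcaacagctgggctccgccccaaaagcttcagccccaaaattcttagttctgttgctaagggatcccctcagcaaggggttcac
Il11 (chr7:4781141-4781390, minus strand, an inner start site 4718 bases from the gene start): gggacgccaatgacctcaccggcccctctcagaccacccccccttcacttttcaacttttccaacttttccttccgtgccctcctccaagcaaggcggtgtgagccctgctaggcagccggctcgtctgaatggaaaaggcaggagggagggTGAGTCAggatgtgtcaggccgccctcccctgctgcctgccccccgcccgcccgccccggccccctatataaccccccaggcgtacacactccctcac
The match in Il1rn lies in the window at the gene start, 141 bases before the start site, and the other 2 windows of Il1rn, at inner sites, hold none. In Il11 the window at the gene start holds none, and the match starts 98 bases before the inner site. Both windows of Il1rl1, of which that at the gene start is shown, hold none. Over windows of 300 bases (250 before and 50 after a start site), 2565 of 32851 windows of all genes (7.81%) and 12 of 70 windows of 56 members (17.1%) held these letters. The members with the letters also included Il1a, Il13ra2, and Il22ra1, which had a higher value at an unadjusted p under 0.05 with 10% RPS. The letters of the STAT motif, TTCNNNGAA, which also reads the same on both strands, were in 8.3% of all windows, in 8 of 70 member windows (11.4%), and in none of the windows of these 3 genes. A match is a description of the letters only.

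Among the other IL-1 family ligands, the agonists Il1a and Il1b had estimates above 0 with 10% RPS. Il1a was at 1.66, 1.63, 1.35, 1.38, and 1.26 CPM in mice 1 to 5 on 0% RPS and at 2.37, 1.68, 1.80, 1.88, and 2.25 CPM on 10%. All 5 mice fed with 10% RPS lay above all 5 controls, as in 1.68% of all genes, and no other member did so. Its log2 fold change was 0.45 ± 0.22 (edgeR adjusted p = 0.251). With 5% RPS none of the 54 genes had every mouse above the controls, as 1.53% of all genes had. Il1b, the main secreted IL-1 of macrophages, was at 0.638 to 5.69 CPM with 0% RPS and at 1.26 to 7.43 CPM with 10%, and these ranges overlapped. Its log2 fold change of 0.46 ± 0.52 (edgeR adjusted p = 0.673) was -0.13 without mouse 5 on 10% RPS. Il18 was at 75.9, 58.9, 53.6, 61.4, and 44.5 CPM with 0% RPS and at 65.3, 81.0, 95.8, 64.4, and 75.6 CPM with 10%. These groups overlapped through mouse 1 on 0% RPS, and the log2 fold change was 0.38 ± 0.17 (edgeR adjusted p = 0.232). The binding protein Il18bp, which neutralizes IL-18, was at 5.82 ± 1.27 CPM with 0% RPS and 6.36 ± 0.76 with 10%.

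The 8 IL-1 family receptors were all tested, and 3 of the 8 had a higher estimate with 10% RPS. The signaling receptor Il1r1 was at 46.3 ± 8.87 CPM with 0% RPS and 42.1 ± 6.29 with 10% (log2 fold change -0.14 ± 0.16, edgeR adjusted p = 0.675). Il18r1, the ligand-binding chain of the IL-18 receptor, was at 1.14, 2.47, 1.05, 1.34, and 0.975 CPM in mice 1 to 5 on 0% RPS, at 2.25, 2.56, 2.54, 1.86, and 3.30 CPM on 5%, and at 2.44, 1.55, 2.31, 1.93, and 2.21 CPM on 10%. Mouse 2 on 0% RPS stood above the other controls, within the range of the mice fed with 5% and above those fed with 10%. In edgeR the log2 fold change was 0.84 ± 0.27 with 5% RPS (edgeR adjusted p = 0.141) and 0.59 ± 0.26 with 10% (edgeR adjusted p = 0.232). At 10% it was 0.89 without mouse 2 on 0% RPS, with an adjusted p of 0.0491, in a fit in which 2.23% of all genes passed the threshold. That was the lowest adjusted p of Il18r1 at 10% over the alternatives, and the highest was 0.407. Il18rap, the signaling chain of the same receptor, was at 1.52 ± 0.52 and 1.48 ± 0.43 CPM with 0 and 10% RPS. Il1rapl1, a synaptic relative of these receptors, was at 1.97 ± 0.72 and 3.05 ± 1.09 CPM (log2 fold change 0.62 ± 0.28, edgeR adjusted p = 0.232). Il1rl2, the IL-36 receptor, was at 3.86 ± 0.998 and 2.86 ± 0.49 CPM (log2 fold change -0.43 ± 0.21, edgeR adjusted p = 0.269), and was singled out after its values were seen.

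**Figure D3:**
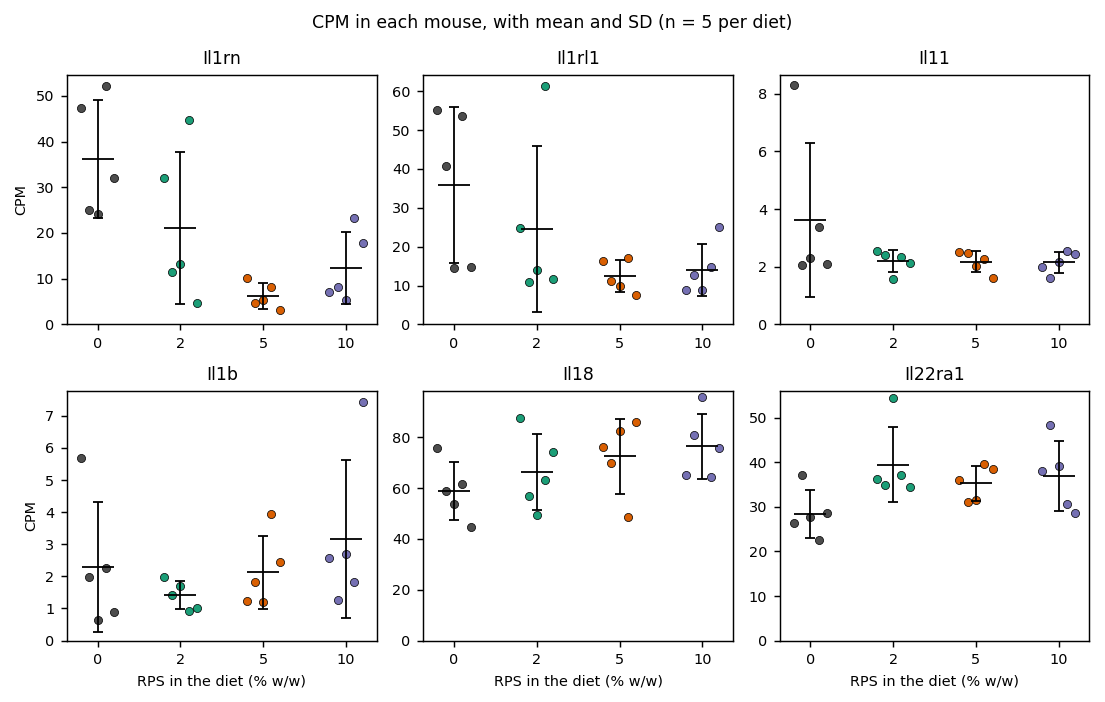
CPM of 6 genes in each mouse by RPS in the diet (% w/w), on linear axes from 0, with the mean and SD of 5 mice. Il1rn lies between 24.1 and 52.2 with 0% RPS and between 3.06 and 10.2 with 5%, while Il11 has 1 mouse on 0% RPS at 8.30, and Il1b reaches 5.69 in 1 mouse on 0% and 7.43 in 1 mouse on 10%.

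In the IL-10 family, Il22ra1, the IL-22 receptor of epithelial cells, was at 26.3, 37.1, 27.6, 22.6, and 28.6 CPM with 0% RPS and at 36.3, 35.02, 54.5, 37.3, and 34.5 CPM with 2%. It was at 35.3 ± 3.90 CPM with 5% RPS and 37.0 ± 7.83 with 10%. At each dose of RPS some mice lay within the range of the controls, of which mouse 2 was the highest. The log2 fold change was 0.47 ± 0.15 with 2% RPS and 0.38 ± 0.15 with 10% (edgeR adjusted p = 0.784 and 0.178). Il22ra2, a secreted binding protein that captures IL-22, was at 5.63, 12.7, 4.31, 3.12, and 1.84 CPM with 0% RPS and at 11.95, 5.21, 12.4, 20.3, and 17.1 CPM with 10%. The groups overlapped through mouse 2 on 0% RPS, which was high, and mouse 2 on 10% RPS, which was low. The log2 fold change was 1.28 ± 0.44 (edgeR adjusted p = 0.125), and it was 1.85 without mouse 2 on 0% RPS, with an adjusted p of 0.0237. That was the lowest adjusted p of Il22ra2 over the alternatives, and the highest was 0.235. Il10rb was at 84.0 ± 5.64 CPM with 0% RPS and 75.5 ± 4.52 with 10%, a log2 fold change of -0.15 ± 0.065 (edgeR adjusted p = 0.205). Il10 itself was at 0.0750 to 0.717 CPM with 0% RPS and 0.188 to 0.632 with 10%, and these ranges overlapped. Its ligand-binding receptor Il10ra was at 5.49 ± 3.32 and 10.0 ± 3.37 CPM (log2 fold change 0.87 ± 0.41, edgeR adjusted p = 0.249).

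The 4 tested IL-17 family receptors had no common direction. Il17rc, the highest member, was at 182 ± 31.7 CPM with 0% RPS and 173 ± 14.99 with 10% (log2 fold change -0.08 ± 0.10, edgeR adjusted p = 0.700), and Il17ra, its partner chain, was at 33.0 ± 3.10 and 34.9 ± 4.03 CPM. Il17rd, which also modulates growth factor signaling, was at 4.42 ± 0.27 and 5.66 ± 1.24 CPM (log2 fold change 0.36 ± 0.17, edgeR adjusted p = 0.254). In the IL-6 and IL-12 families, Il23a, the subunit particular to IL-23, was at 0.358, 0.0796, 0, 0.0671, and 0.287 CPM with 0% RPS and at 0.592, 0.129, 0.253, 0.377, and 0.488 CPM with 10%. Several of these values were at or under the floor, and the groups overlapped (log2 fold change 1.11 ± 0.57, edgeR adjusted p = 0.289). Il6st, the signaling chain gp130 shared by the IL-6 family, was at 68.7 ± 4.69 and 75.9 ± 3.58 CPM (log2 fold change 0.14 ± 0.073, edgeR adjusted p = 0.282). Il11ra1 was at 15.2 ± 1.53 and 15.2 ± 0.95 CPM. Its close copy Il11ra2 had 0 counts in every mouse, and reads that fit both copies may have been counted on Il11ra1 or left out.

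The receptors of the common gamma chain and type 2 cytokines, by which lymphocytes receive growth signals, all had a higher estimate with 10% RPS, 13 of 13 genes, with a median log2 fold change of 0.50 against 0.0041 in all genes. With 5% RPS 8 of the 13 had a higher estimate (49.5% of all genes did) and the median was 0.091, and with 2% RPS 10 of 13 did (51.0% of all genes) and the median was 0.13. The list also holds Il3ra, Il5ra, and Il31ra, whose chains pair with other partners, and without mouse 5 on 0% RPS or mouse 2 on 10% RPS the estimate of Il31ra was below 0, which left 12 of 13. The share of all tested genes with a higher estimate was 50.9%. In 3 of the 13, Il2rg, Il9r, and Il13ra2, the unadjusted p was under 0.05, as for a higher value in 9.74% of all genes. Il2rg, the common gamma chain itself, was at 0.163, 0.677, 0.113, 0.101, and 0.0287 CPM in mice 1 to 5 on 0% RPS and at 0.976, 0.232, 1.14, 0.801, and 0.825 CPM on 10%. Mouse 2 was the highest of the controls and the lowest of the mice fed with 10%, and these mice crossed. In mice 3 to 5 on 0% RPS these values rest on 3, 3, and 1 counts, at or under the floor. The log2 fold change was 1.91 ± 0.62 (edgeR adjusted p = 0.0998), and the slope was 0.20 ± 0.052 per 1% of RPS (edgeR adjusted p = 0.0567). Without mouse 2 on 0% RPS the log2 fold change was 2.94, with an adjusted p of 0.0204. These were the extremes over the alternatives, in which the log2 fold change of Il2rg fell to 1.62 and its adjusted p reached 0.240. Il9r, the IL-9 receptor of mast cells and lymphocytes, was at 0.423, 1.71, 0.300, 0.403, and 0.344 CPM with 0% RPS and at 2.72, 0.645, 2.81, 2.59, and 3.23 CPM with 10% (log2 fold change 1.93 ± 0.64, edgeR adjusted p = 0.114). The same mice crossed as in Il2rg. DESeq2 gave 1.92 with an adjusted p of 0.0336, and over the alternatives the adjusted p was between 0.0336 and 0.233. Il13ra2, the decoy receptor of IL-13, was at 0.447 ± 0.53 CPM with 0% RPS and 1.61 ± 0.77 with 10% (log2 fold change 1.87 ± 0.76, edgeR adjusted p = 0.190), and without mouse 2 on 0% RPS the value was 2.84, with an adjusted p of 0.0536. That was the lowest adjusted p of Il13ra2 over the alternatives, and the highest was 0.347. Il21r was at 4.75, 15.9, 2.18, 3.12, and 2.09 CPM with 0% RPS and at 17.8, 3.05, 22.6, 16.2, and 22.3 CPM with 10% (log2 fold change 1.55 ± 0.75, edgeR adjusted p = 0.265), and was singled out after its values were seen. Without mouse 2 on 0% RPS it was 2.43, with an adjusted p of 0.0777, the lowest for Il21r over the alternatives, of which the highest was 0.429. Il13ra1 and Il4ra, the chains that IL-4 and IL-13 use on epithelium, were at 76.6 ± 7.47 and 48.5 ± 11.8 CPM with 0% RPS and 79.6 ± 6.44 and 54.4 ± 9.13 with 10%. The ligands Il15 and Il4 had log2 fold changes of 0.12 ± 0.14 and 0.04 ± 0.18 (edgeR adjusted p = 0.683 and 0.944), and the other ligand named for its level, Il34, had 0.23 ± 0.21 (edgeR adjusted p = 0.577).

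B cell markers varied between mice together with many of these receptors. The summed CPM of Ms4a1, Cd79a, and Cd79b had medians of 11.1 (range 3.44 to 117.3) with 0% RPS, 6.19 (2.47 to 153.7) with 2%, 36.5 (5.30 to 69.4) with 5%, and 122.1 (8.52 to 145.2) with 10%. None of these 3 markers passed the threshold, and 3 of 3 had a higher estimate with 10% RPS. Mouse 2 on 0% RPS (117.3, against 3.44 to 18.2 in the others) and mouse 3 on 2% RPS (153.7, against 2.47 to 22.95) stood above their groups, and mouse 2 on 10% RPS (8.52, against 112.1 to 145.2) stood below its group. In 18 of the 54 genes (33.3%), mouse 2 was the highest on 0% RPS, mouse 3 the highest on 2%, and mouse 2 the lowest on 10%, as in 5.77% of all tested genes. These genes were Il10ra, Il12a, Il12rb1, Il13ra2, Il17ra, Il18bp, Il18r1, Il1rl2, Il20rb, Il21r, Il22ra2, Il27ra, Il2ra, Il2rb, Il34, Il5ra, Il7r, and Il9r. They included 5 of the 11 genes with a higher value at an unadjusted p under 0.05 and 0 of the 4 with a lower value. These counts stand beside 33.3% of all 54 genes. The share among all tested genes with such a p was not computed, so no link is drawn from the counts. Il27ra, the IL-27 receptor, had 2.02, 5.85, 1.84, 1.64, and 0.803 CPM with 0% RPS and 5.96, 1.45, 7.96, 5.84, and 6.04 CPM with 10%. Il5ra, the IL-5 receptor of eosinophils and some B cells, was at 0.278 ± 0.23 and 0.634 ± 0.35 CPM with 0 and 10% RPS, and both genes were singled out after their values were seen. The summed CPM of 5 T cell markers had medians of 17.1 (range 16.8 to 34.0) with 0% RPS and 28.9 (11.5 to 39.8) with 10%, and 0 of 5 passed the threshold. The same 3 mice were at the extremes of this sum, at 34.0 (others 16.8 to 17.4), 47.9 (others 13.8 to 17.3), and 11.5 (others 24.9 to 39.8). They were also at the same extremes of their diets in the summed CPM of 5 macrophage markers (91.3, 123.7, and 79.96). The summed CPM of 4 tuft cell markers had them there too (31.97, 33.8, and 19.4). The epithelial marker sum ran the other way, with the lowest values of their diets in mouse 2 on 0% RPS (8433) and mouse 3 on 2% RPS (8729) and the highest in mouse 2 on 10% RPS (10940). The part of these cells in the values of the receptors was not tested.

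**Figure D4:**
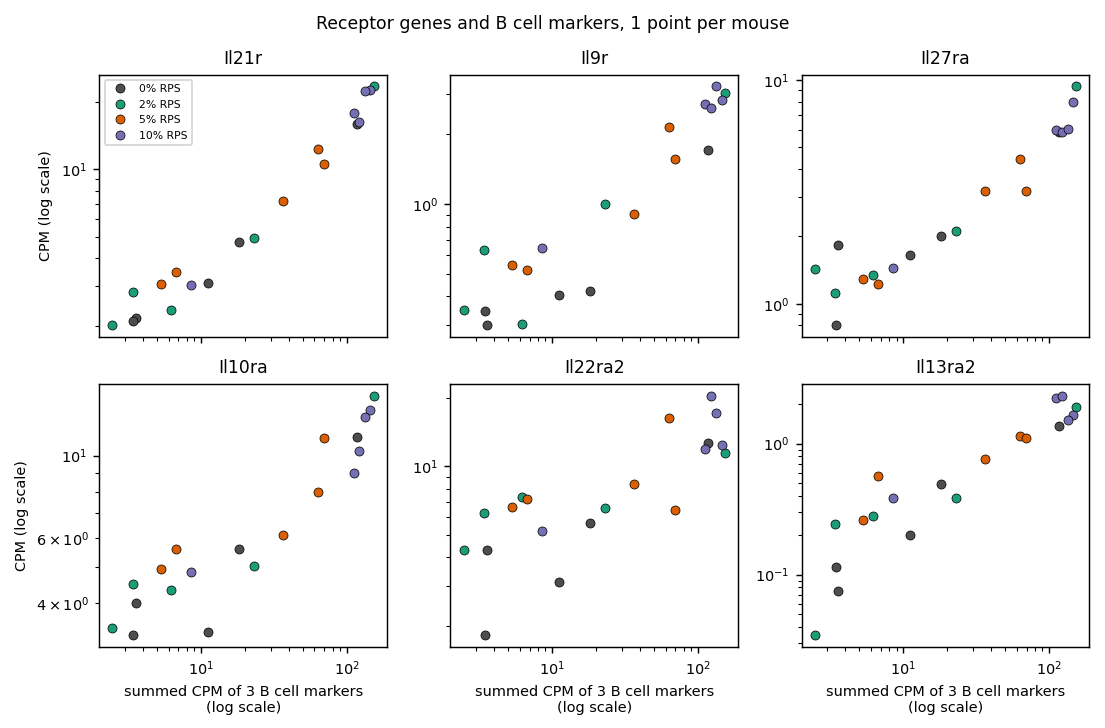
CPM of 6 receptor genes against the summed CPM of 3 B cell markers, 1 point per mouse colored by RPS in the diet, both axes logarithmic. In each panel a mouse fed with 0% RPS (marker sum 117.3) lies near the mice fed with 10%, and a mouse fed with 10% RPS (marker sum 8.52) lies among the mice with low marker sums. All 6 genes are among the 18 of 54 in which these mice were the highest and the lowest of their diets. The choice of genes thus fixes that these mice are extreme in every panel.

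Genes that act beside or after the interleukin receptors were followed as 5 lists, chosen with earlier results of these data known. Of 13 epithelial genes known to respond to IL-22 or IL-17, 11 were tested, and 4 rose past the threshold with 10% RPS (Saa1, Nos2, Duoxa2, and Duox2), a threshold that 1.04% of all tested genes passed, while 0 fell. At an unadjusted p under 0.05, 1 gene of the list, Fut2, was lower. Saa1, an acute phase protein, went from 84.0 ± 37.4 to 255.4 ± 112.3 CPM (log2 fold change 1.60 ± 0.32, edgeR adjusted p = 0.0251). Nos2, the inducible nitric oxide synthase, went from 0.792 ± 0.48 to 4.41 ± 2.73 CPM (2.49 ± 0.55, edgeR adjusted p = 0.0289), and Duoxa2, the maturation factor of an epithelial oxidase, from 6.36 ± 4.56 to 41.6 ± 26.0 CPM (2.72 ± 0.62, edgeR adjusted p = 0.0347). The median log2 fold change of the list was 0.49 against 0.0041 in all genes. The paper had itself reported Nos2, Duoxa2, and Duox2 as higher in the cecum with 10% RPS. The 4 calls and the median of this list therefore cannot be set against the values of all genes. Il22 and Il17a themselves were below the filter in these mice, and the genes of the list also respond to other signals. Of 9 genes known to respond to IL-4 or IL-13, 7 were tested and 0 passed the threshold, with a median of -0.53, and the goblet cell gene Clca1 had the lowest p (log2 fold change -0.53 ± 0.20, edgeR adjusted p = 0.161). In the IL-1 receptor pathway 0 of 10 genes passed (2 were higher and 1 lower at an unadjusted p under 0.05, a level at which 9.74% of all genes were higher and 9.75% lower), and the inhibitor of NF-kappaB signaling Tnfaip3 had the lowest p (0.63 ± 0.17, edgeR adjusted p = 0.0644). Of 15 genes for JAK, STAT, and SOCS proteins, which carry the signal of most interleukin receptors, 0 passed, and at an unadjusted p under 0.05 2 (Jak2 and Socs2) were higher and 1 (Cish) was lower, near the shares of all genes just given. Among them the inhibitor Socs2 reached 0.42 ± 0.10 on the log2 scale (edgeR adjusted p = 0.0347), under the fold change of 1.5. Of 12 receptor partners outside the name rule, 0 passed, and at an unadjusted p under 0.05 2 were higher and 2 were lower, against the same shares of 9.74% and 9.75% of all genes.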

How the data were processed

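Cecal RNA of 20 mice was sequenced from one end (stranded poly(A) libraries). After trimming of low-quality nucleotides and removal of reads with several ambiguous nucleotides, the authors aligned the reads to GRCm39 with the CLC Genomics Workbench and deposited raw counts per gene and mouse. The annotation release, strand setting, and treatment of reads that fit several genes are not given in the sources used here, so close copies and overlapping genes are uncertain. Diets came from the labels, and mice are numbered 1 to 5 within a diet by mouse number. The 20 mice are separate animals with no number shared between diets.

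The counts were fitted with edgeR 4.0.16 in R 4.3.3 (filterByExpr with minimum count 10 and minimum total 15, TMM factors of 0.916 to 1.07, robust quasi-likelihood, 4 diets in 1 model, and a separate slope over the percentage of RPS). A call needed an adjusted p (Benjamini-Hochberg over 15348 genes) no higher than 0.05 and a fold change of 1.5 or more, with no fold for the slope. Standard errors follow from the fold change and its test. The model was tested on simulated data, and Python 3.11.15 made the tables. Gene models came from GENCODE M39, which held 19827 of the table's genes and lacked 60. RefSeq start site windows were placed on GRCm39 by exact match.

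The members, gene lists, and tests were chosen with earlier results of these data known. Named genes were those past a threshold, the 12 members with the lowest p at 10%, the 5 ligands and 5 receptors with the highest level, and 9 gut interleukins (Il1b, Il6, Il10, Il17a, Il18, Il22, Il23a, Il25, and Il33), and, for each other list, up to 3 genes with the lowest p. Other members named with values (such as Il1a, Il10ra, Il17rd, Il17ra, Il6st, Il4ra, Il11ra1, Il18rap, Il18bp, Il1rl2, Il21r, Il27ra, and Il5ra) were singled out after their values were seen. Alternatives were DESeq2 1.42.0 (size factors, and its Wald test), no low-count filter, 10 or more counts per mouse, no robust estimation, only the diets compared, no fold threshold, ranked doses, and leaving out each mouse in turn. 1 listed B cell marker is not reported here, and the marker sums leave it out.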

Additional observations from a re-analysis of the deposited data

Results flagged for a closer look

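In 27 of 124 groups of 5 mice, the highest or lowest mouse stood apart from the other 4 by Dixon's criterion (a ratio of gap to range above 0.71). Chance gives this in about 1 of 20 groups of normally spread values, but these groups include genes singled out after their values were seen (Il21r and Il27ra among them) and 4 groups in which all mice but 1 had 0 counts, which fixes the ratio at 1.0, so the 27 cannot be set against that share. Mouse 2 on 0% RPS was the highest in Il18r1 (2.47 CPM, others 0.975 to 1.34), Il21r (15.9, others 2.09 to 4.75), Il27ra (5.85, others 0.803 to 2.02), Il2rg (0.677, others 0.0287 to 0.163), and Il9r (1.71, others 0.300 to 0.423). Mouse 3 on 2% RPS was the highest in Il10ra (14.5, others 3.44 to 5.05), Il13ra2 (1.89, others 0.0348 to 0.386), Il21r (23.4, others 2.02 to 4.95), Il27ra (9.34, others 1.12 to 2.12), Il9r (3.03, others 0.303 to 0.996), and Il22ra1 (54.5, others 34.5 to 37.3). Mouse 2 on 10% RPS was the lowest in Il9r (0.645, others 2.59 to 3.23). These 3 mice also stood apart in the B cell markers and were at the extremes of the T cell, macrophage, tuft cell, and epithelial marker sums.

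Among the ligands, mouse 1 on 0% RPS was the highest in Il11 (8.30 CPM) and in Il22 (1.30), and mouse 5 on 10% RPS was the highest in Il1b (7.43), Il22 (0.713), and Il17a (0.188). Il17a also stood apart in mouse 2 on 0% RPS (0.0398), mouse 2 on 2% RPS (0.243), and mouse 5 on 5% RPS (0.141), where the other 4 mice had 0 counts, as did Il22 in mouse 2 on 5% RPS (0.0864). Il25 was highest in mouse 3 on 0% RPS (0.113). Most of these ligand values rest on few counts. Among the receptors, Il1rl1 was highest in mouse 4 on 2% RPS (61.4), Il1r1 in mouse 1 on 2% RPS (59.9), Il1rapl1 in mouse 5 on 0% RPS (3.24), Il13ra1 in mouse 3 on 5% RPS (90.2), and Il22ra2 in mouse 3 on 5% RPS (16.2).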

How the results depend on the processing

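The count of genes past the threshold was 0 under every alternative at 2% RPS. At 10% RPS it was 1 with DESeq2's Wald test (Il9r) and 0 to 4 with 1 mouse left out, where the 4 came without mouse 2 on 0% RPS (Il18r1, Il22ra2, Il2rg, and Il9r), a fit in which 2.23% of all genes passed. At 5% RPS it was 1 (Il1rn in each case) with DESeq2's Wald test, without robust estimation, and with only the diets compared, and 0 to 1 with 1 mouse left out, the 1 without mouse 1 on 5% RPS, where the shares of all genes were 1.41%, 0.274%, 0.436%, and 0.739% in that order. For the slope it was 2 with DESeq2's Wald test, 1 with the rank of the dose (Il2rg), and 0 to 4 with 1 mouse left out, namely 4 without mouse 3 on 2% RPS (Il13ra2, Il22ra2, Il2rg, and Il9r), 2 without mouse 2 on 0% RPS, and 1 without mouse 2 or mouse 4 on 10% RPS. The shares of all genes with a slope were 4.84% in DESeq2, 3.51% with the rank, and 4.37%, 1.66%, 0.888%, and 3.64% without these mice in turn, against 1.11% over all 20 mice. Of 881 alternative values of single genes, 856 kept direction and side of the threshold, 20 passed it in the same direction, and 5 in 3 genes changed sign. With 1 mouse left out at 10% RPS, the log2 fold change of Il17rc was -0.15 to 0.038, that of Il1b was -0.13 to 1.13, and that of Il4 was -0.030 to 0.17. Of the other small values, Il34 was 0.096 to 0.39, Il15 0.049 to 0.20, Il1r1 -0.20 to -0.062, and Il10rb -0.18 to -0.10, with no call changed. The cause of these differences was not tested. No paired analysis was possible because no mouse number occurs in more than 1 diet. Of the 35 ligands, 18 were below the filter, and whether deeper sequencing would bring them past it was not tested.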

Other observations

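The common gamma chain gene Il2rg had 223 counts in the 20 mice together and a level of 0.167 CPM per kilobase of exon, although its product pairs with the chains of several other members. The level per kilobase was 1.25 for Il2rb, 0.614 for Il7r, 2.68 for Il21r, and 5.00 for Il4ra. How the reads of Il2rg were counted could not be examined in the count table.

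The type 2 cytokine genes that neighbor each other on chromosome 11 had unequal counts. Il4 had 1592 counts in the 20 mice, while Il13 had 27 and Il5 had 29. Of these, Il4 overlaps a protein-coding gene, Kif3a, on the opposite strand, and the part of Kif3a reads in the count of Il4 was not tested. In all, 15 of the 76 genes overlap a protein-coding gene, 3 of them on the same strand (Il10rb, Il11ra1, and Il4i1).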
